A study of Elaeis guineensis with 15 samples.

Results

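A set of 71 mRNA transcripts in the fruit abscission zone (AZ) of oil palm (*Elaeis guineensis*) was expressed weakly at 120 days after pollination (DAP) and strongly at 160 DAP, when fruit were being shed in the field. They were chosen from the 39453 mRNA transcripts of 3 field libraries by their expression values alone: RPKM of at least 20 at 160 DAP, at least 8 times the RPKM at 120 DAP, and an RPKM at 120 DAP that, with 0.1 added to both values, stayed below 2 times that at 30 DAP. RPKM is a read number scaled to the length of the transcript and the size of the library, so it can be compared between transcripts of different length. Since these values chose the transcripts, their field levels are given below as a description and no test was made on them.

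Organ shedding takes place in the AZ, thin layers of small cells at the base of the organ, where enzymes acting on the wall loosen the bond between neighbouring cells until they separate. Ethylene, the gas that also drives ripening, promotes the process, and auxin moving through the organ is known to delay it. Defence-type proteins and a remodelled metabolism usually accompany cell separation in plants.

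The labels give the same *tenera* clone, grown in Thailand, for the libraries of both experiments, while the methods name it for the ethylene experiment only, and each library pooled tissue of many fruit. The field libraries (Illumina) came from the AZ-containing fruit base at 30 and 120 DAP, when no fruit detached, and at 160 DAP, when detachment was seen. Age, ripeness and shedding changed together between the 120 and 160 DAP libraries and cannot be told apart. Below, "at shedding" and "shedding AZ" name the 160 DAP library only. In the second experiment, spikelets were kept in closed boxes with 10 μl/l ethylene for 3, 6 or 9 h, and tissue taken before treatment (0 h) served as the control. Those 12 libraries (Roche pyrosequencing) cover the AZ of ripe fruit at 150 DAP (AZ150), the pedicel below it (P150, placed at 150 DAP by the labels) and the AZ of unripe fruit at 30 DAP (AZ30), which does not separate under ethylene. Every condition of both experiments was sequenced as 1 library, and none came from spikelets kept without ethylene for 3, 6 or 9 h, so ethylene and the time spent in the box cannot be told apart.

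The field libraries held 73500310, 84184660 and 42896169 reads at 30, 120 and 160 DAP, totals that were recovered from the RPKM values, and the ethylene libraries held 26560 to 302391 reads in contigs. *EgPG4*, a polygalacturonase that cuts pectin and is expressed in the shedding AZ but also in ripening mesocarp, had RPKM 4.83 at 30 DAP, then 35.9 at 120 DAP and 1938 at 160 DAP. The fruit base also holds mesocarp. Over the 6 annotated mesocarp oil transcripts the summed RPKM was 544, 2186 and 423 at the 3 ages in order, over the 2 carotenoid transcripts it was 27.8, 62.1 and 128, and the 1 photosynthesis transcript had 28.4, 213 and 137. None of these 9 transcripts was at 0 at 160 DAP. The marker lists for cell division and for vascular walls had no annotated transcript. What part the mixture of tissues has in the values below was not tested, and in such bulk tissue fewer cells of a type and less RNA per cell cannot be told apart.

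Of the 5 members that were joined to a contig, described below, 1 was a target of the quantitative PCR primers that the study designed, that of *EgHMG2*. The pair is shown because the study lists it for the contig of *EgHMG2*, the only member contig called between AZ150 and P150 below. Whether the primers match the field transcript was not checked, as no transcript sequences were at hand. Both primers are written from their 5′ end in lower case.
HM-coA_S: ttccctcatgtcagctctcg
HM-coA_AS: tgatgggctactttgt

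Of the 39453 mRNA transcripts, 4708 reached RPKM 20 at 160 DAP, and 251 of those 4708 (5.33%) were at least 8 times above their value at 120 DAP. The condition on 30 DAP left out 180 of the 251, transcripts already at least 2 times higher at 120 DAP than at 30 DAP, and kept the 71, which are 0.18% of all mRNA transcripts. In the opposite direction, 244 of the 5810 mRNA transcripts with RPKM of at least 20 at 120 DAP were at least 8 times lower at 160 DAP. Among the 180 are 12 genes that the study names, several of them for roles in the wall, in defence or in hormone synthesis. *EgThaumatin PR*, a pathogenesis-related protein, went from RPKM 3.51 at 30 DAP through 49.8 at 120 DAP to 17186 at 160 DAP. *EgLAC7*, a laccase that oxidises phenolics in the wall, went through 1.22, 30.8 and 1267. *EgACO5*, an ACC oxidase that makes ethylene, went through 1.03, 39.5 and 671.

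Together the 71 transcripts took 0.217% of all reads at 30 DAP, 0.0603% at 120 DAP and 1.63% at 160 DAP. Their median RPKM was 5.01, 2.46 and 68.5 at the 3 ages, against 3.43, 2.29 and 1.5 over all mRNA transcripts. Since the median transcript was lower at 160 DAP, rescaling the libraries by the median ratio would raise every log2 ratio of 160 to 120 DAP by 0.52, and the values here are as deposited. At 160 DAP the set ranged from RPKM 20.03 to 957, with 24 transcripts at 100 or above and 24 below 50, and the 5 strongest held 35.8% of the summed RPKM. The ratio of 160 DAP to 120 DAP had a median of 30.9 and was 100 or more in 22 transcripts. Counting error is small against these ratios in most of the set, and only 6 transcripts had fewer than 10 reads at 120 DAP. The lower end of the 95% counting interval was at least 8 in 69 of 71. XM_010912962.1, with 0 reads at 120 DAP, has no interval. The same limit of 8 chose the transcripts, so this count is no support for the rise. These intervals cover counting error only, since there is no second library at any age.

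The rule puts no limit on how 160 DAP relates to 30 DAP, and this is where the members differed most among themselves. In 19 transcripts RPKM was under 1 at both earlier ages, in 47 it was higher at one of them but at least 2 times lower at 30 DAP than at 160 DAP, and in 5 the value at 30 DAP was within 2-fold of that at 160 DAP or above it. Over the whole set, 23 transcripts were at least 2 times higher at 30 DAP than at 120 DAP, and 9 were at least 8 times higher. The description of the set as switched on at shedding therefore fits the 19 best. For the 5, expression was present in the young AZ, low at 120 DAP and present again at shedding.

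**Figure D1:**
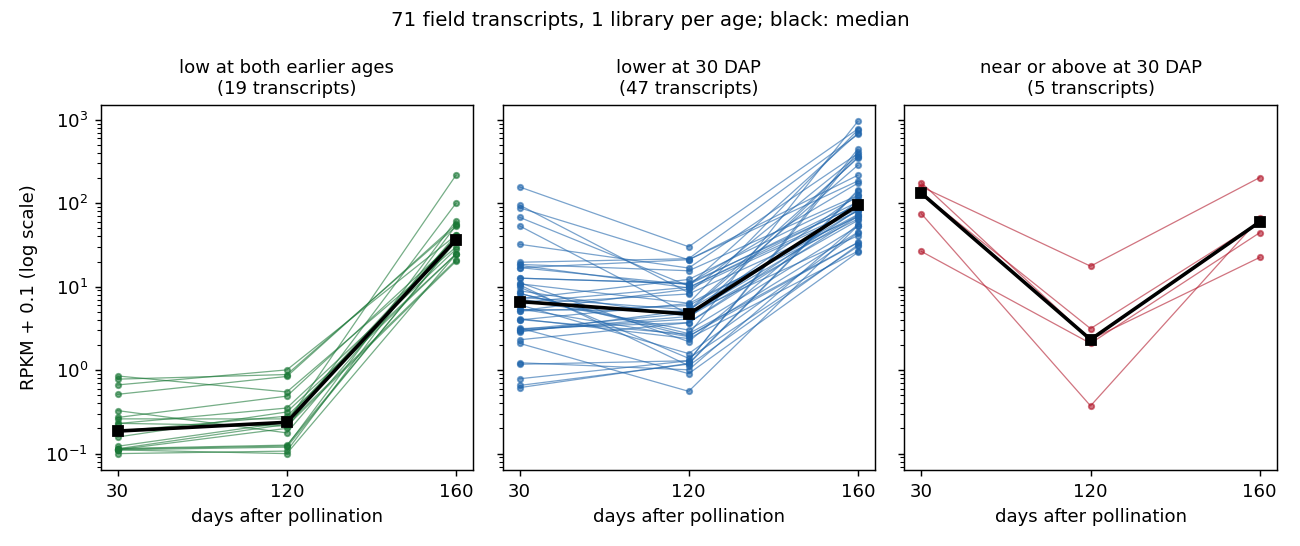
RPKM plus 0.1 on a log axis at 30, 120 and 160 DAP for each of the 71 transcripts (thin lines, 1 library per age) with the median in black, split by the level at 30 DAP. The 19 transcripts on the left start near the bottom of the axis, the 47 in the middle from a median RPKM of 4.60 at 120 DAP, and the 5 on the right dip at 120 DAP.

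Among the 19 transcripts that were low at both earlier ages, the medians were RPKM 0.0862, 0.137 and 36.4 at the 3 ages, and the median ratio of 160 DAP to 120 DAP was 176. XM_010912671.1 was the strongest of them, with RPKM 0.0225 at 30 DAP, 0.137 at 120 DAP and 217 at 160 DAP, a ratio of 1579 between the last 2 ages (95% counting interval 941 to 2889). XM_010924948.1 followed with RPKM 0.0116, 0.101 and 99.7, a ratio of 988 (interval 640 to 1619). Both had 2 reads at 30 DAP, and 11263 and 10073 reads at 160 DAP, so that their early levels are near the limit of what these libraries can show.

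Several others in this group had almost no read before 160 DAP. XM_010910055.1 had 0 reads at 30 DAP, 1 read at 120 DAP and 3807 reads at 160 DAP (RPKM 54.0), and its ratio of 7471 was the highest of the set but had an interval of 1340 to 295178. LOC105047109 (XM_010925919.1) had 1, 2 and 2707 reads and RPKM 61.9 at 160 DAP. LOC105035328 (XM_010910866.1) had 1, 2 and 1900 reads and RPKM 36.4 at 160 DAP. Both thus showed the same near absence at the earlier ages. XM_010920981.1 had 1, 2 and 1343 reads and RPKM 34.9 at 160 DAP. XM_010912962.1 had 1 read at 30 DAP, 0 at 120 DAP and 1312 at 160 DAP (RPKM 24.4), which makes it at least 858-fold higher at 160 DAP than at 120 DAP when 0 is replaced by 3 reads in that library. For these 5 transcripts the size of the ratio is set by 0 to 2 reads at 120 DAP, and only its lower bound can be read.

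The group of 47 transcripts had RPKM of at least 1 at an earlier age and was lower at 30 DAP than at 160 DAP. Its medians were RPKM 6.54, 4.60 and 94.2 at the 3 ages, with a median ratio of 21.9 between 160 and 120 DAP. These transcripts hold most of the 15 strongest members. LOC105044229 (XM_010922054.1) was the highest of the whole set, with RPKM 3.94 at 30 DAP, 2.59 at 120 DAP and 957 at 160 DAP, a ratio of 370 (interval 336 to 408), and it ranked 60th among all mRNA transcripts at 160 DAP. LOC105049276 (XM_010928876.1) had a ratio of about the same size, with RPKM 1.08, 1.20 and 446 (ratio 373, interval 324 to 431). LOC105036921 (XM_010912643.1) was similar with RPKM 0.688, 1.19 and 409 (ratio 343, interval 290 to 408). These 3 had 423, 196 and 137 reads at 120 DAP, and at 160 DAP each was above RPKM 217, the highest value among the 19 transcripts above.

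Other strong members started from a higher level. LOC105035172 (XM_010910620.1) had RPKM 157 at 30 DAP, 30.0 at 120 DAP, the highest 120 DAP value of the set, and 776 at 160 DAP. LOC105032116 (XM_010906469.1) had 10.7, 6.23 and 754. XM_010913255.1 had 67.7, 10.1 and 688. The first and the last of these were thus well expressed at 30 DAP already, whereas LOC105032116 was not. LOC105058058 (XM_010940836.1) had RPKM 19.5, 21.5 and 665, flat over the earlier ages. LOC105045995 (XM_010924459.1) had 94.99, 8.38 and 369, a drop and a rise. XM_010917787.1 had 2.90, 3.99 and 357. The rest of the 15 strongest transcripts ran from RPKM 393 down to 203 at 160 DAP. XM_010918491.1, the shortest member at 276 bases, had RPKM 2.76, 5.12 and 347. LOC105041526 (XM_010918480.1) had 5.23, 4.96 and 285. XM_010915558.1 had 16.7, 20.9 and 216. None of these had the drop from 30 to 120 DAP seen in LOC105045995, and XM_010918491.1 was near the 2-fold limit between those ages.

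**Figure D2:**
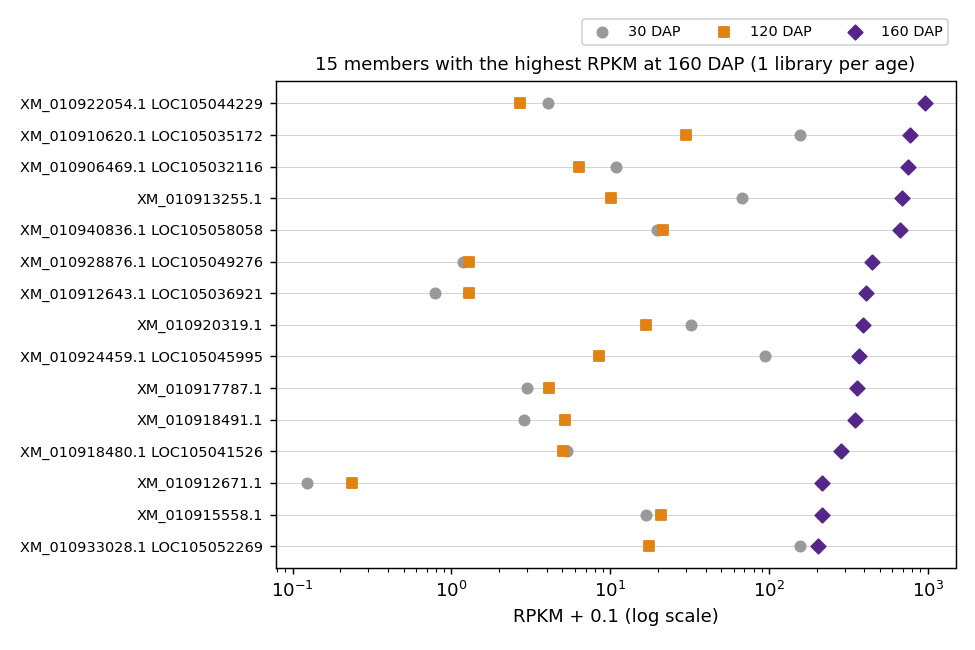
RPKM plus 0.1 on a log axis for the 15 transcripts with the highest value at 160 DAP (1 library per age; circles 30 DAP, squares 120 DAP, diamonds 160 DAP). The diamonds lie between RPKM 203 and 957, while the 120 DAP values spread from 0.137 to 30.0 and the 30 DAP values from 0.0225 to 157.

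The 5 transcripts near or above their 160 DAP level at 30 DAP were at a median RPKM of 132, 2.23 and 59.6 at the 3 ages. XM_010908108.1 was highest at 30 DAP, with RPKM 176 at 30 DAP, 2.23 at 120 DAP and 22.3 at 160 DAP. Its level at shedding was thus 0.127 times that at 30 DAP (interval 0.119 to 0.135). LOC105053813 (XM_010935111.1) had RPKM 74.7, 0.273 and 65.9, the deepest dip of the set, with 14070 reads at 30 DAP, 59 at 120 DAP and 7246 at 160 DAP. XM_010916084.1 had RPKM 132, 3.04 and 59.6, and stayed below its 30 DAP level. In these 3 the young AZ was higher than the shedding AZ. LOC105052269 (XM_010933028.1) had RPKM 157, 17.5 and 203. LOC105045069 (XM_010923234.1) had 26.3, 1.99 and 44.2. In this last pair shedding exceeded 30 DAP by 1.29-fold and 1.68-fold.

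A dip at 120 DAP was also seen in members of the larger group, in some deeper than in LOC105052269. LOC105058440 (XM_010941382.1) had RPKM 88.0, 20.9 and 184 at the 3 ages, and LOC105054692 (XM_010936263.1) had 53.4, 4.60 and 125. Of the 71 transcripts, 50 were at least 8 times higher at 160 DAP than at 30 DAP, 16 were between 2 and 8 times higher, and 3 were lower. The background for the first count is that 784 of all 39453 mRNA transcripts (1.99%) had RPKM of at least 20 at 160 DAP and at least 8 times their 30 DAP value. The level at 160 DAP was used by the rule, so nothing is read from the difference between the shares.

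**Figure D3:**
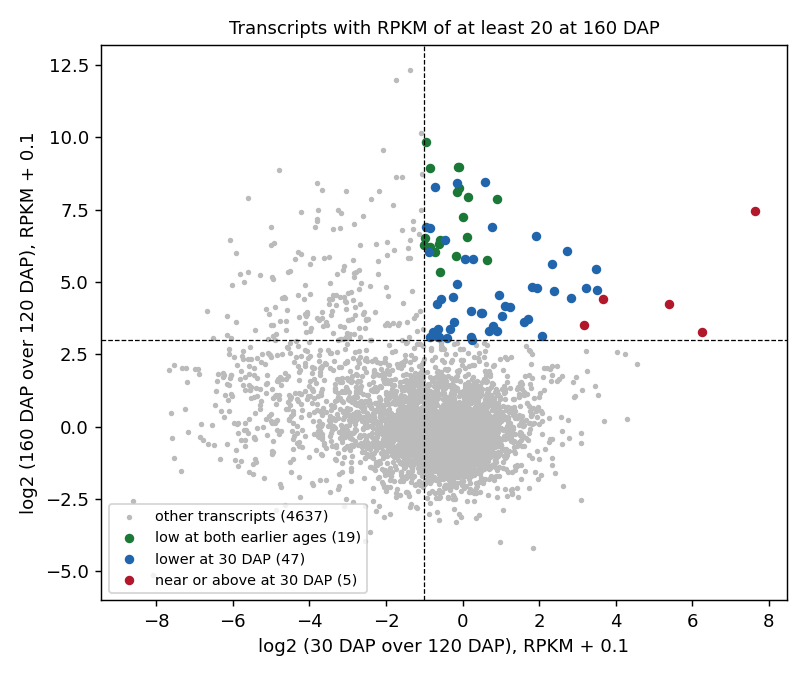
Each point is 1 of the 4708 mRNA transcripts with RPKM of at least 20 at 160 DAP, placed by the log2 ratio of 30 to 120 DAP (horizontal) and of 160 to 120 DAP (vertical), with 0.1 added to each RPKM. The dashed lines mark an 8-fold rise and a 2-fold lower value at 30 DAP; the 71 members lie in the upper right, and the 5 red points on its right side were near or above their shedding level at 30 DAP.

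The limits of the rule cut through a continuous range of values. At the level limit, LOC105036901 (XM_010912622.1) was just inside with RPKM 20.03 at 160 DAP, followed by LOC105051899 (XM_010932542.1) with 20.8, and XM_010935244.1 was just outside with 19.8. At the ratio limit, LOC105039277 (XM_010915377.1) was just inside with a ratio of 8.05 (RPKM 15.4 at 120 DAP and 124 at 160 DAP), whose counting interval of 7.79 to 8.31 includes 8. XM_010923960.1 was just outside with a ratio of 7.97. At the limit between 120 and 30 DAP, XM_010928804.1 was just inside at 1.996 times and XM_010930226.1 was just outside at 2.06 times. Low counts decide the last limit for some transcripts: XM_010934598.1 had RPKM 0 at 30 DAP, then 0.112 and 239, and was left out at 2.12 times, although its early levels resemble those of XM_010912671.1, which was kept at 1.94 times.

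A gene locus could be given to 44 of the 71 transcripts by their RefSeq identifiers, each to a different locus, and 27 were not matched. None of the 44 loci had a second field transcript matched to it. The reference table names no product for these loci, so that most members are reported by identifier alone. Among the 27 unmatched there may be variants of matched loci. In 5 pairs of members the accession numbers lay within 3 of each other. XM_010918612.1 and XM_010918613.1 (LOC105041644) were nearly equal at all ages, with RPKM 8.20 and 8.20 at 30 DAP, 2.64 and 2.46 at 120 DAP and 33.8 and 33.6 at 160 DAP, and with 7333 and 7351 bases they were nearly as long. XM_010940099.1 and XM_010940102.1 had RPKM 62.1 and 52.7 at 160 DAP. XM_010917786.1 (LOC105041005) and XM_010917787.1 were unlike each other, with RPKM 144 and 357. The other pairs are those of *EgMIPS2* and *EgGH3.5/WES1*, described below. Reads were mapped to transcripts, so variants of a gene or near-identical copies divide the reads between them, and the separate values of these 10 transcripts are uncertain in that respect.

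All 44 matched loci were placed in the gene order of the EG11 assembly, which is not the build behind the field table, so no positions are given. In 2 cases 2 members were direct neighbours. LOC105036921 and LOC105041005 had RPKM 0.688 and 0.517 at 30 DAP, 1.19 and 1.10 at 120 DAP, and 409 and 144 at 160 DAP. Their transcripts were 1364 and 1368 bases long, and reads shared between similar copies were not separated here. *EgGH3.5/WES1* (LOC105056155) lay next to LOC105058058, and their levels at 160 DAP, RPKM 69.5 and 665, were further apart. A locus with RPKM of at least 1 at 160 DAP and at least 8 times the 120 DAP value was the direct neighbour of 6 of the 44 member loci (13.6%), against 368 of 18133 other loci (2.03%). Within 5 gene places the counts were 11 of 44 (25%) and 1677 of 18133 (9.25%). Of the 6, 4 are the members of the 2 neighbouring pairs, so that each pair counts at both of its ends. LOC105036606 lay next to LOC105037600, which is not a member and had RPKM 0.0165, 1.76 and 91.4. LOC105052359 lay next to LOC105052360, also no member, with RPKM 0.743, 9.35 and 180. These neighbours had a similar rise but were already up at 120 DAP.

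The study's annotation lists name 867 mRNA transcripts of the field table (2.2% of all), and 5 of them are members. These lists hold contigs that were called in AZ150 after ethylene, so what they name was chosen on the ethylene libraries, and the lists used here were shortened. Of 17 lists by product name, 15 had no member. The pathogenesis-related list had 40 annotated transcripts, of which 12 reached RPKM 20 with the same 8-fold rise, but none was a member because they were higher at 120 DAP than at 30 DAP. Of 4 annotated pectin transcripts 2 met the same limits, and of 15 for wall loosening and glycosidases 3 did, again with no member. Over all 867 annotated transcripts 33 had that rise (251 of 39453 over all mRNA, 0.636%), and the median log2 ratio of 160 to 120 DAP, with 0.1 added, was -0.01 against -0.32. The list of hormones other than ethylene had 32 transcripts and 1 member, *EgGH3.5/WES1*, and the redox list had 27 and 1 member, the sterol oxidase described next, which came in through the word oxidase in its product name.

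The first and second of the 5 annotated members belong to the route from acetate to sterols. *EgHMG2* (XM_010912686.1) encodes HMG-CoA reductase, the rate-limiting enzyme of the mevalonate pathway, which supplies sterols and other isoprenoids. It had RPKM 12.6 at 30 DAP, 10.8 at 120 DAP and 174 at 160 DAP, a ratio of 16.1 between the last ages (interval 15.4 to 16.9). XM_010920319.1 is annotated as a sterol 4-alpha-methyl-oxidase, an enzyme that removes methyl groups from sterol precursors, and had RPKM 32.1, 16.6 and 393, a ratio of 23.7 (interval 22.7 to 24.7). It was the eighth strongest member at 160 DAP.

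*EgMIPS2* (LOC105032996, XM_010907606.1) encodes inositol-3-phosphate synthase, which makes the precursor of myo-inositol from glucose phosphate. It had RPKM 7.35 at 30 DAP, 5.204 at 120 DAP and 81.8 at 160 DAP, a ratio of 15.7 (interval 14.6 to 16.9). XM_010907607.1, the next accession number, had 6.54, 4.55 and 71.7. *EgGH3.5/WES1* (XM_010938255.1) encodes an amido synthetase that couples auxin to amino acids and so lowers free auxin. Its RPKM was 2.21, 3.60 and 69.5, a ratio of 19.3 (interval 17.8 to 21.0). The next accession number, XM_010938256.1, had 2.85, 4.30 and 94.2. LOC105032364 (XM_010906806.1) is annotated as a cytochrome b561, a membrane protein that passes electrons from ascorbate, and had RPKM 16.8, 10.5 and 103, a ratio of 9.89 (interval 8.94 to 10.96). All 5 fell in the group of 47, each with RPKM above 1 at both earlier ages, and none in the group of 19.

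The rule did not use the ethylene libraries. The 5 annotated members could be followed there through the contig that the study joined to each. The lists that join them hold contigs called in AZ150 from these same libraries. Calls of these 5 in AZ150 were therefore built in by the annotation and are given as a description. The other 66 were not joined to a contig here. Counts were scaled to 100000 reads in contigs. The Audic and Claverie test (two-sided) set each library of treated tissue against 0 h, calling a contig at p under 0.01 without adjustment, and it compares 2 libraries and not 2 conditions. Its upper tail left out the observed count, which makes the p-values printed for a rise smaller than with that count included. Over 5 contigs and 9 treated libraries, 17 of 45 comparisons were called higher and 0 lower. Of 5 contigs, AZ150 had 1, 3 and 4 called at 3, 6 and 9 h, P150 had 2, 3 and 4, and AZ30 had 0 at each time. The background is high because of how the contigs were annotated. Of 916 annotated contigs with a field transcript, AZ150 had 35.8%, 42.5% and 52% called higher at 3, 6 and 9 h, P150 had 29.6%, 33% and 26.3%, and AZ30 had 6.44%, 2.18% and 14%. Among all contigs with a read, the shares were 1.93%, 1.93% and 1.98% for AZ150, 2.46%, 2.85% and 3.07% for P150, and 0.523%, 0.324% and 0.838% for AZ30. With 5 contigs the counts in AZ150 cannot be set apart from that background. Neither can the lack of calls in AZ30, where the 0 h library held only 26560 reads.

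**Figure D4:**
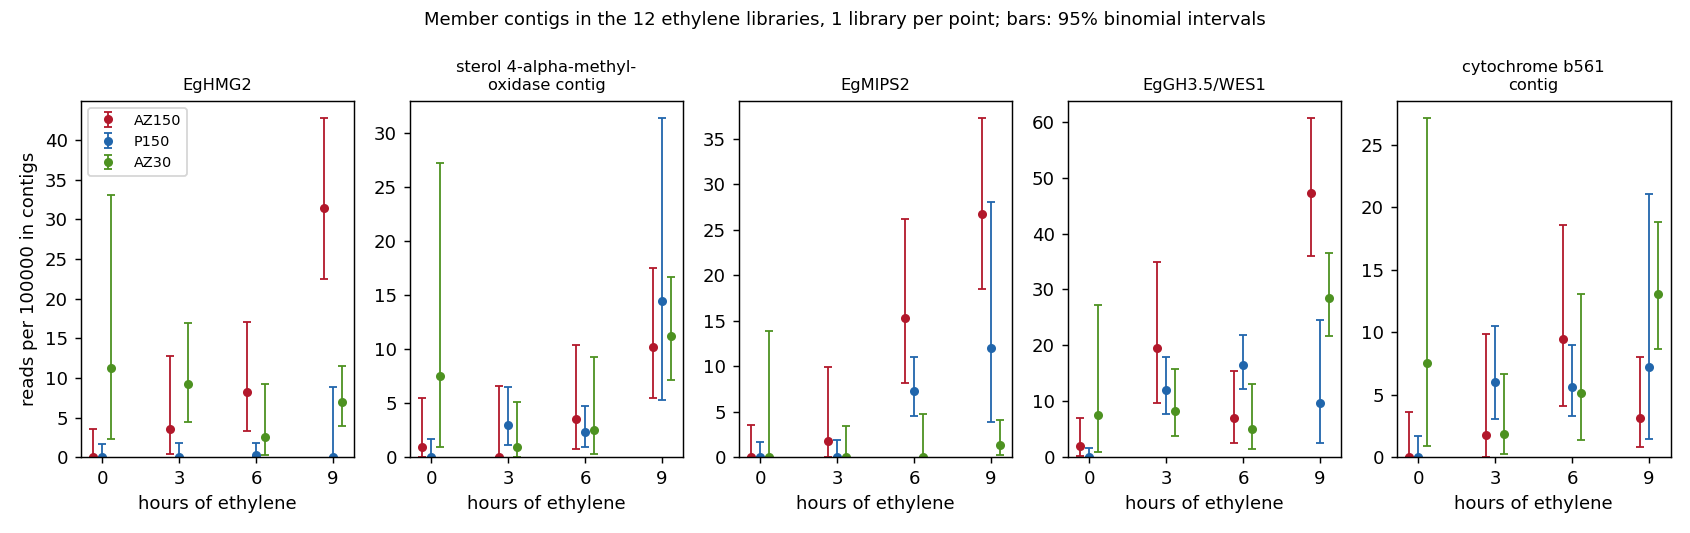
Reads per 100000 reads in contigs (linear axis from 0, scaled for each contig) of the 5 member contigs at 0, 3, 6 and 9 h of ethylene in AZ150, P150 and AZ30; each point is 1 library and bars are exact 95% binomial intervals. EgHMG2 reaches 31.5 in AZ150 at 9 h while P150 stays at 0.331 or below, and EgMIPS2 reaches 26.7 in AZ150 while AZ30 stays at 1.40 or below.

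In AZ150 *EgHMG2* had 0 reads at 0 h, 2 reads at 3 h, 7 reads at 6 h and 40 reads at 9 h, which is 0, 3.55, 8.26 and 31.5 per 100000. The 6 h and 9 h libraries were called higher (exact Audic and Claverie p = 0.00351 and 5.83e-11), and at 9 h the level was at least 10.8-fold above 3 reads in the 0 h library. In P150 it had 0, 0, 1 and 0 reads, where 3 reads, the limit used for a count of 0, are 1.36 per 100000 among the 221123 reads at 0 h (exact 95% upper limit 1.67). In AZ30 it had 3, 10, 2 and 15 reads, or 11.3, 9.23, 2.55 and 6.99 per 100000, with no call. The mRNA was thus present in the unripe AZ before ethylene and was nearly absent from the pedicel.

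*EgMIPS2* had 0, 1, 13 and 34 reads in AZ150, or 0, 1.77, 15.3 and 26.7 per 100000, and was called at 6 h (exact Audic and Claverie p = 3.01e-05) and 9 h (p = 2.03e-09). At 9 h this was at least 9.15-fold above 3 reads in the 0 h library. In P150 it had 0, 0, 22 and 5 reads, or 0, 0, 7.28 and 12.0 per 100000, and was called at the same times. In AZ30 it had 0, 0, 0 and 3 reads. It was therefore higher at the later times in both ripe tissues, with few reads in AZ30. Before ethylene it had 0 reads in each tissue, ripe or unripe. The field AZ at 30 DAP, sequenced far deeper, did hold it, with RPKM 7.35 (1007 reads).

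*EgGH3.5/WES1* had 2, 11, 6 and 60 reads in AZ150, or 1.95, 19.5, 7.08 and 47.2 per 100000. The ratio to 0 h was 10.0 at 3 h (95% counting interval 2.18 to 92.9), 3.63 at 6 h (0.649 to 36.8) and 24.2 at 9 h (6.42 to 204), and the 3 h and 9 h libraries were called. In P150 it had 0, 24, 50 and 4 reads, or 0, 12.0, 16.5 and 9.62 per 100000, and all treated libraries were called. In AZ30 it had 2, 9, 4 and 61 reads, or 7.53, 8.30, 5.11 and 28.4 per 100000, with no call. At 9 h in AZ30 the Audic and Claverie p was 0.0453 and the ratio was 3.78 (1.00 to 31.9). Reads of it were thus found in all 3 tissues.

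The sterol oxidase contig was sparse, with 1, 0, 3 and 13 reads in AZ150, or 0.975, 0, 3.54 and 10.2 per 100000, and was called at 9 h only (ratio 10.5, interval 1.58 to 446). In P150 it had 0, 6, 7 and 6 reads and was called at 9 h, the library with 41588 reads, where 6 reads are 14.4 per 100000. In AZ30 it had 2, 1, 2 and 24 reads and no call. The cytochrome b561 contig had 0, 1, 8 and 4 reads in AZ150, with a call at 6 h only, and 0, 12, 17 and 3 reads in P150, with calls at all 3 times. Its reads in AZ30 were 2, 2, 4 and 28, up to 13.1 per 100000 at 9 h, with no call. The AZ30 library at 0 h held 26560 reads, so that 3 reads there are 11.3 per 100000 and rises from low levels were not detectable at this depth.

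Over the time course, differences between tissues were put to the quasi-likelihood test of edgeR on 10762 contigs, with tissue and time as terms and the 4 times of a tissue in place of replicates. Its p-values therefore measure scatter between times around that fit, and not variation between fruit or palms. *EgHMG2* was higher in AZ150 than in P150 (49 reads of 370960 against 1 read of 765323, ratio 101 with a counting interval of 17.3 to 4073, edgeR adjusted p = 5.78e-05), the only member contig of 5 called, where 67 of 10762 contigs (0.623%) were called higher in AZ150 and 0.0465% lower. Of the 49 reads, 40 came from the 9 h library, and at 0 h *EgHMG2* had 0 reads in both tissues. Without the 9 h libraries it fell below the filter on reads and had no test. *EgMIPS2* was higher in AZ150 than in AZ30 (48 reads against 3 reads of 427692, ratio 18.4 with an interval of 5.95 to 92.6, edgeR adjusted p = 0.000474), again the only one of 5, against 255 of 10762 contigs (2.37%) called higher and 2.07% lower. It fell below the filter without the 6 h or the 9 h libraries. Among annotated contigs the shares called higher were 4.99% (P150) and 15.9% (AZ30). For *EgHMG2* against AZ30 the adjusted p was 0.885, and for *EgMIPS2* against P150 it was 0.788. Both genes are candidates of the study, kept because they differed between AZ150 and both other tissues in these same counts. The calls in this paragraph are therefore no separate support for a difference between tissues.

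In edgeR the treated libraries of each tissue were also set against its 0 h library, which leaves 1 library on the 0 h side. The treated times served as repeats there, so a change over the times counted as scatter. The log2 response of the 5 contigs ran from 2.37 to 7.36 in AZ150, from 1.52 to 7.07 in P150 and from -0.309 to 3.09 in AZ30. Counts of calls from this fit are not read as presence or absence of a response. The difference in response between tissues was tested in the same fit. For *EgHMG2* the log2 response in AZ150 minus that in AZ30 was 7.67, a value that depends on the added prior count because AZ150 had no read at 0 h, and its edgeR adjusted p was 0.824. For *EgHMG2* the log2 response in AZ150 minus that in P150 was 5.84, but neither 0 h library had a read. The same held for *EgMIPS2* against P150 and AZ30, and for the cytochrome b561 contig against P150. Without reads at 0 h on either side the test could not detect a difference. No difference in response, and no lack of one, is therefore read from this fit for the 5 contigs.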

How the data were processed

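The 3 field libraries were trimmed (Cutadapt), aligned to predicted transcripts (BWA-MEM) and counted (SAMtools) by the authors. RPKM values of 44360 transcripts, 39453 of them mRNA, are what was deposited. For the 12 ethylene libraries, the authors deposited raw read counts in 51804 assembled contigs. The sources used here give no tool versions. A further 17 columns in the count files were not used, and the study's own test results were not used.

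Groups came from the sample labels. The members, gene lists and tests were chosen with earlier results of these data known. Members followed the stated rule on RPKM (pseudocount 0.1). Whole reads were recovered from the RPKM values, as the smallest whole reads and lengths that give them within a relative 1e-09, for 44360 transcripts (100%); whether the unit is a read or a read pair is not known. The recovered values gave the read numbers, shares of reads and transcript lengths printed here, and the 95% exact counting intervals. As the smallest that fit, the reads and length of a transcript can be too low by a whole factor. No test was made on RPKM values. Contigs were joined to transcripts by the identifiers in the study's annotation lists.

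Counts were compared by the Audic and Claverie test, and by edgeR 4.0.16 (TMM, only contigs reaching 3 reads in 4 or more libraries, 6 residual degrees of freedom, Benjamini-Hochberg) and DESeq2 1.42.0 in R 4.3.3; other steps used Python 3.11.15 with scipy 1.17.1. Tested on simulated data with 200 changed contigs, the edgeR comparison of AZ150 with P150 recovered 79 at 4-fold and 191 at 16-fold of 10762 contigs. It made 0 and 4 false calls, and the changed contigs were among the better covered. The Audic and Claverie test at the depths of AZ150 at 0 and 9 h recovered 104 at 2-fold and 200 at 4-fold, among the better covered of 51804 contigs. It made 67 and 63 false calls, on simulated counts with counting error only.

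Named transcripts were the 15 highest at 160 DAP, the 10 largest ratios of 160 to 120 DAP with 0.1 added to both values, those nearest each limit, the 10 highest at 30 DAP, neighbours and every member with a contig. Of the 5 nearest on each side of a limit, only the closest are printed. Promoter sequences and proteins were not analysed here.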

Additional observations from a re-analysis of the deposited data

Results flagged for a closer look

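Noncoding transcripts lay outside the set of 39453 mRNA transcripts. Among the 4907 of the field table, 2 met the same limits, a signal at 160 DAP above that of the earlier ages in values that the comparisons above did not use. XR_833697.1 had RPKM 21.0 at 30 DAP, 10.8 at 120 DAP and 112 at 160 DAP. XR_830462.1 had RPKM 2.99, 2.16 and 29.8.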

How the results depend on the processing

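The number of members depended on the limits. It was 71 as reported, 113 with a pseudocount of 1, 134 at RPKM of at least 5, 47 at RPKM of at least 50 and 134 at a ratio of at least 4. Without a minimum it was 2769, which includes transcripts with no read. After rescaling the libraries by the median ratio over transcripts present in all 3, which shifts the log2 ratio of 160 to 120 DAP by 0.52, 111 passed, 67 of them among the 71. The other 7 alternatives gave 50 to 104 members. Of the 17 calls after ethylene, counted over contigs and libraries, 11 passed Benjamini-Hochberg adjustment, 5 passed Bonferroni adjustment, and edgeR's test of treated against untreated libraries gave 0; TMM scaling gave 19, and counting the observed value in both tails gave 17. The 1 call between AZ150 and P150 and the 1 between AZ150 and AZ30 held with library totals, with DESeq2 and with both weaker filters. Leaving out each time in turn gave 0 to 1 calls for both, and the calls were lost where the contig fell below the filter. No paired analysis was possible because no replicate numbers link libraries, beyond the time term that matches tissues in the edgeR comparison. The planned search for promoter motifs was not run. Depth limits the ethylene results most in AZ30 at 0 h, with 26560 reads, and in P150 at 9 h, with 41588.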
